A study of Mus musculus with 18 samples.

Results

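The comparison described here is that of a pair of control vectors in the mouse retinal pigment epithelium (RPE), a control hairpin vector and a GFP vector given at the same dose. Its members were the 3 libraries labelled Laczsh and the 3 labelled GFP, 6 of the 18 libraries of the series, and all genes with enough counts to be tested in them, 18018 of the 52636 genes in the count table. The series was made to ask how *Srebp2* and *Lrp2*, which encode a regulator of sterol synthesis and an endocytic receptor, act on gene expression in the RPE of the growing eye. Within it, the control hairpin group serves as the control of the *Lrp2* hairpin groups and the GFP group as that of the nSREBP2 group, so that the difference between both controls is the part of any comparison across them that the cargo may carry.

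All mice were C57BL/6 and were taken at postnatal day 14. The GFP group received an AAV8 vector with GFP under the *Best1* promoter. In the control hairpin group, called ctrl sh below, mCherry followed by a hairpin against *lacZ*, a bacterial gene, took the place of GFP in the same vector. Injection was subretinal and was done in newborn pups. Uninjected mice gave 3 further libraries, and the Lrp2 sh1, Lrp2 sh2 and nSREBP2 groups, which received vectors of the same kind with hairpins against *Lrp2* or with the N-terminal part of SREBP2, gave 3 each. Each library stands for 1 mouse, with material of its left and right eye combined. RPE cells were loosened with papain and trituration from eyecups freed of retina and optic nerve, so cells of the choroid, sclera and retina could be present. The injection, the AAV8 vector, its promoter, the fluorescent protein and the hairpin differ together between ctrl sh and uninjected eyes. Between ctrl sh and GFP eyes, the absence of GFP and the presence of mCherry and the hairpin go together. Which of these elements goes with a difference cannot be told apart.

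The GFP libraries held 11159247, 11092959 and 13231479 counts and the ctrl sh libraries 13696934, 12967362 and 11814113. Uninjected libraries were shallower, with 9305732, 10232105 and 8921885 counts. Levels are given as depth-scaled counts (CPM), scaled for composition over all 18 libraries, in the order of replicates 1, 2 and 3. At these depths 3 counts, taken as the floor of detection in 1 library, came to between 0.218 and 0.266 CPM in the GFP and ctrl sh libraries. Y-linked genes summed to at most 4 counts and *Xist* to at least 19505 in each of these 6 libraries, so that both groups had the same pattern of sex-linked RNA.

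The RPE is a pigmented monolayer behind the photoreceptors. It takes up spent outer segment membrane, returns vitamin A to the photoreceptors as the retinoid of the visual cycle, moves ions, lactate and water between retina and choroid, and makes melanin. A hairpin RNA is trimmed by Drosha and Dicer and loaded on Argonaute proteins, and vector genomes and double-stranded RNA can be sensed by receptors that switch on interferon-stimulated genes.

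Pigment genes and a defining gene of the RPE were checked first. The 14 pigment genes summed to 10186, 9335 and 9332 CPM in ctrl sh, 9762, 10555 and 10478 CPM in GFP and 7951, 10012 and 12994 CPM in uninjected libraries, with *Pmel*, a melanosome matrix protein, the most abundant. All 3 groups thus had melanin genes at a similar level. *Rpe65*, the isomerase of the visual cycle and a defining RPE gene, stood at 371, 955 and 1115 CPM in uninjected, 2.29, 1.06 and 1.58 CPM in GFP and 97.8, 2.58 and 1.77 CPM in ctrl sh libraries. It was within a few CPM of the floor in every GFP library and in ctrl sh 2 and 3, and of these 6 libraries only ctrl sh 1 had far more. Both vector groups therefore lacked most of this marker, while their pigment sums lay within the uninjected range. Melanocyte markers summed to 785, 825 and 791 CPM in ctrl sh and 798, 822 and 872 CPM in GFP. Which cells of the eyecup the pigment RNA came from cannot be told apart. In a bulk library, fewer cells of a type and less RNA per cell cannot be told apart.

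In ctrl sh against GFP, edgeR called 162 of 18018 genes (0.899%), with called meaning an adjusted P under 0.05 and a log2 fold change (log2FC) beyond 1 in either direction. Of these, 141 (0.783% of those tested) were higher in ctrl sh and 21 (0.117%) lower. By the adjusted P alone, 418 genes (2.32%) were higher and 65 (0.361%) lower. The higher genes included RPE genes of retinoid handling and transport such as *Ttr*, *Lrat*, *Rdh10* and *Slc16a8*, receptors for GABA and other transmitters led by *Gabrg1*, and *Fbxo2*, *Enpp2*, *Mt3* and *Ctsd*. Among the lower genes were the ATF4 stress genes *Trib3*, *Chac1*, *Asns* and *Fgf21*. Over all genes tested the median log2FC was −0.02.

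Higher calls outnumbered lower ones whichever single library was left out, but by how much varied. Without GFP replicates 1, 2 and 3 in turn there were 105, 98 and 110 higher and 23, 9 and 58 lower calls, and without ctrl sh replicates 1, 2 and 3 there were 128, 131 and 122 higher and 30, 10 and 11 lower. Leaving out ctrl sh replicate 1 and GFP replicate 3 together, an alternative chosen after seeing the data, gave 286 calls, 139 higher and 147 lower, of which 127 were shared with the 162. With no filter on low counts 337 genes were called, 235 higher and 102 lower. Only in the fit without those 2 libraries were lower calls the more numerous. On average, libraries differed somewhat more between the vectors than within them: the root mean square difference of log2 CPM over 19744 genes averaged 0.549 between GFP and ctrl sh libraries, 0.494 among GFP libraries and 0.467 among ctrl sh libraries. Uninjected libraries were 0.657 from GFP and 0.652 from ctrl sh libraries.

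**Figure D1:**
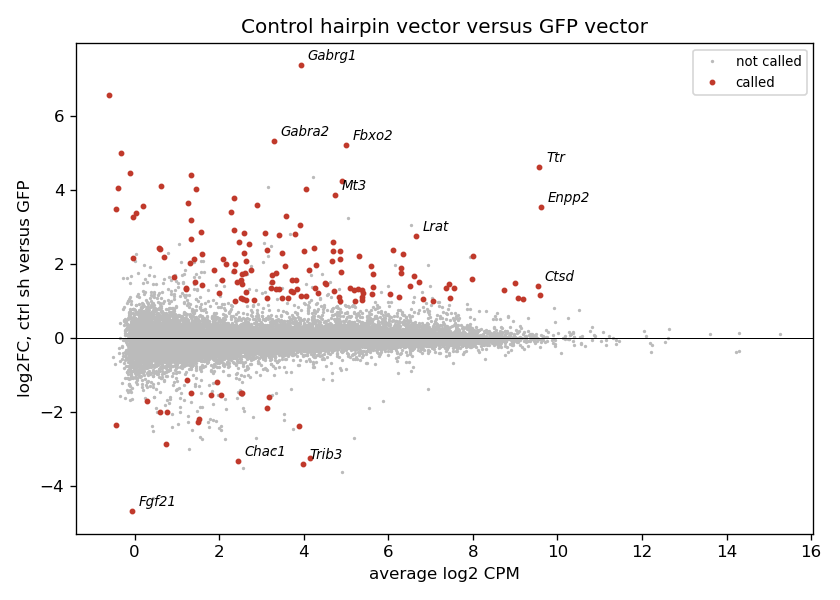
Log2FC of ctrl sh against GFP (vertical axis) over the average log2 CPM (horizontal axis), 1 point for each of the 18018 genes tested, with the 162 called genes in red. Called genes lie mostly above 0, with *Gabrg1* at 7.38 the highest and *Fgf21* at −4.68 the lowest.

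Several retinoid genes of the RPE were higher in ctrl sh. Of the 11 visual cycle genes, 3 were called, all higher, beside 0.783% higher among all genes, and the median log2FC of the list was 1.99, beside −0.02 over all genes. The count was 7 with no filter on low counts, and 2 without GFP replicate 1 or GFP replicate 2. It was 4 without ctrl sh replicate 1 or ctrl sh replicate 3. *Ttr*, transthyretin, which carries retinol-binding protein and thyroxine, gave 1954, 1133 and 1261 CPM in ctrl sh, 72.2, 62.3 and 40.4 CPM in GFP and 777, 2148 and 2077 CPM in uninjected libraries. No GFP library came near any library of the other groups, which overlapped with each other. The log2FC was 4.62 (SE 0.27, n = 3 and 3), with an edgeR adjusted P of 0.000125. Against uninjected libraries the *Ttr* log2FC was −0.22 in ctrl sh, adjusted P 0.726, and −4.86 in GFP, adjusted P 0.00210, both by edgeR. These comparisons share their uninjected libraries with each other and the GFP or ctrl sh libraries with the main one.

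*Rdh10*, a retinol dehydrogenase, stood at 613, 311 and 329 CPM in ctrl sh, 108, 81.2 and 75.9 CPM in GFP and 222, 552 and 659 CPM in uninjected libraries. All ctrl sh libraries were above all GFP libraries, with ctrl sh 1 the highest. Its log2FC was 2.23 (SE 0.26, n = 3 and 3), edgeR adjusted P 0.00269. *Lrat*, which stores retinol as retinyl esters, gave 313, 93.01 and 111 CPM in ctrl sh and 27.6, 28.3 and 20.2 CPM in GFP, against 246, 746 and 867 CPM in uninjected libraries. Here too ctrl sh 1 was highest, and the other ctrl sh libraries lay between the GFP and the uninjected ones. The *Lrat* log2FC was 2.76 (SE 0.43, n = 3 and 3), edgeR adjusted P 0.0113. That call was lost without GFP replicate 1, with an adjusted P of 0.0581, and without GFP replicate 2, with 0.0626, both from edgeR.

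In 4 other visual cycle genes the level in ctrl sh 1 was several times that in ctrl sh 2 and 3. *Rpe65* had a log2FC of 4.36 (SE 1.47, n = 3 and 3) with an edgeR adjusted P of 0.208, and was not called. *Rgr*, a retinal G protein-coupled opsin of the RPE, stood at 423, 31.9 and 33.05 CPM in ctrl sh and 27.3, 19.1 and 11.4 CPM in GFP, against 617, 1758 and 2108 CPM in uninjected libraries. *Stra6*, the membrane receptor for retinol-binding protein, gave 212, 67.5 and 59.9 CPM in ctrl sh and 32.6, 33.3 and 19.3 CPM in GFP. In both genes ctrl sh 1 was several times above ctrl sh 2 and 3, which were still above the GFP libraries. *Rlbp1*, which binds 11-cis retinoids, overlapped between the groups, at 315, 72.9 and 76.5 CPM in ctrl sh and 75.98, 73.4 and 43.8 CPM in GFP. None of *Rgr*, *Stra6* and *Rlbp1* passed the adjusted P in edgeR, at 0.169, 0.0628 and 0.326. These 4 genes were named after their values were seen. Summed over the 11 genes, the list reached 4431, 2036 and 2169 CPM in ctrl sh, 653, 622 and 511 CPM in GFP and 2953, 7884 and 8567 CPM in uninjected libraries, with *Ttr* the most abundant member.

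Of 17 transport and junction genes, 2 were called, both higher, beside 0.783% higher among all genes, and the list had a median log2FC of 0.09. *Slc16a8*, the lactate transporter MCT3 of the basolateral RPE membrane, stood at 223, 57.9 and 62.1 CPM in ctrl sh, 27.8, 22.3 and 14.7 CPM in GFP and 103, 292 and 279 CPM in uninjected libraries. GFP and ctrl sh did not overlap, but ctrl sh 1 was far above the other ctrl sh libraries. With a log2FC of 2.40 (SE 0.51, n = 3 and 3) it passed narrowly, edgeR adjusted P 0.0456. The call was lost without any 1 of GFP replicates 1, 2 and 3, at edgeR adjusted P of 0.118, 0.173 and 0.103, and without ctrl sh replicate 1 the log2FC was 1.47 and still called. *Cdh3*, P-cadherin of the epithelial junctions, gave 166, 104 and 92.1 CPM in ctrl sh and 49.6, 34.3 and 21.8 CPM in GFP, a log2FC of 1.77 (SE 0.29, n = 3 and 3) with an edgeR adjusted P of 0.0153. Every ctrl sh library exceeded every GFP library, and the uninjected libraries, at 33.4, 80.96 and 77.9 CPM, lay mostly between. Without GFP replicate 2 the *Cdh3* call was lost, edgeR adjusted P 0.0849.

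Among pigment genes edgeR called 0 of 14, with 6 at an unadjusted p under 0.05 beside 13.6% of all genes, and DESeq2 also called 0. The list median was −0.11, and 10 genes had a lower sign in ctrl sh. *Mlana*, a melanosome protein, passed the adjusted P alone, at 140.0, 145 and 148 CPM in ctrl sh and 187, 211 and 192 CPM in GFP, a log2FC of −0.46 with an edgeR adjusted P of 0.00686. Among the 12 genes of outer segment phagocytosis edgeR called 0, with 3 at an unadjusted p under 0.05, and DESeq2 called 0. *Itgav*, a subunit of the integrin that binds shed outer segments, passed the adjusted P alone with a log2FC of 0.54, edgeR adjusted P 0.0215.

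**Figure D2:**
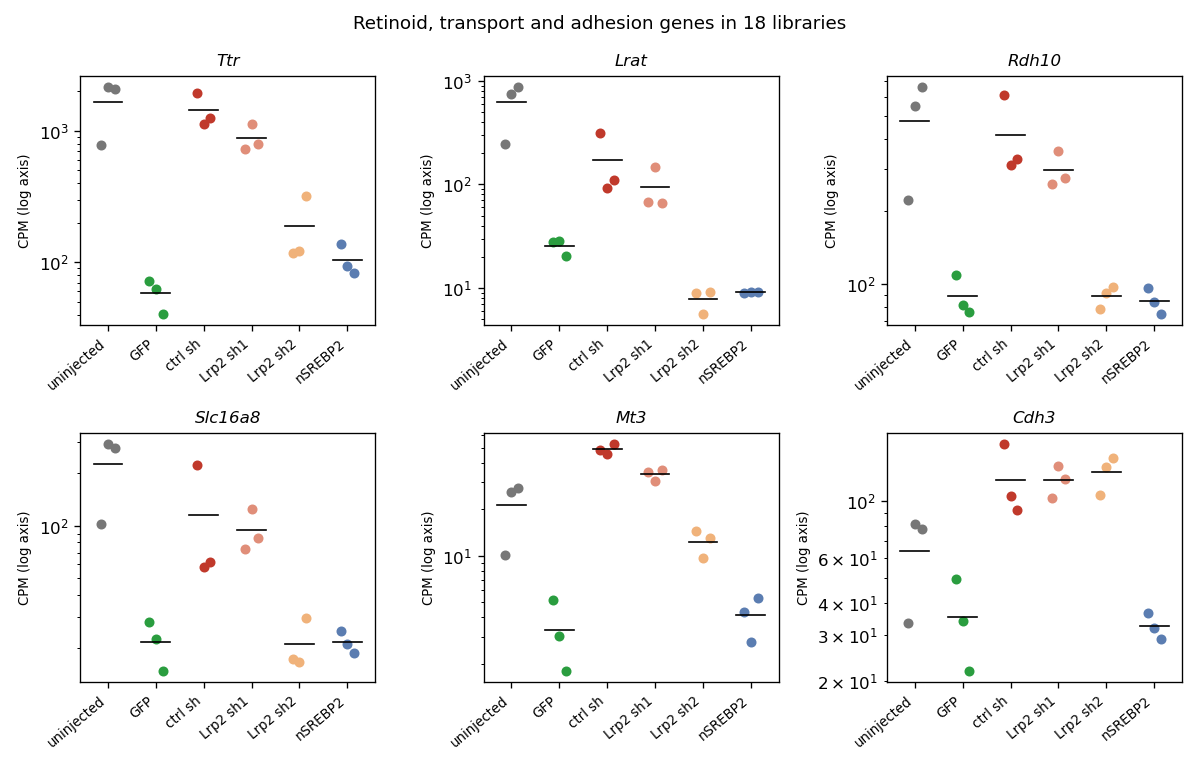
CPM on a log axis of *Ttr*, *Lrat*, *Rdh10*, *Slc16a8*, *Mt3* and *Cdh3* in the 18 libraries, with 1 point for each library and a line at the mean of its group. GFP libraries lie below all ctrl sh libraries in each of the 6 panels, and ctrl sh 1 is the highest ctrl sh library in all but *Mt3*.

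Receptors for neurotransmitters held some of the largest rises over GFP. Of 42 receptor genes tested, 7 were called and all 7 were higher in ctrl sh, beside 0.783% higher among all genes, while the median log2FC of the list was 0.11. Of these genes 25 had a higher and 17 a lower sign in ctrl sh. The list summed to 546, 499 and 513 CPM in ctrl sh and 346, 364 and 300 CPM in GFP, without overlap. With at least 10 counts required in every library 3 were called, as *Gabrg1*, *Gabra2* and others had fewer in at least 1 GFP library. *Gabrg1*, the gamma-1 subunit of the GABA-A receptor, a chloride channel, stood at 19.9, 26.2 and 42.4 CPM in ctrl sh, 0.170, 0.0887 and 0.225 CPM in GFP and 0.303, 0 and 0 CPM in uninjected libraries. It was at or under the floor in GFP and uninjected libraries and well above it in all ctrl sh libraries. With 1112 counts in ctrl sh and 6 in GFP, the depth-scaled ratio was 175, with a 95% counting interval of 80.3 to 479, and the edgeR adjusted P was 0.000156. *Gabra2*, the alpha-2 subunit, gave 12.9, 17.4 and 25.1 CPM in ctrl sh and 0.764, 0.177 and 0.375 CPM in GFP, a log2FC of 5.34 (SE 0.40, n = 3 and 3) with an edgeR adjusted P of 0.000317. Uninjected libraries had 1 library at 0.101 CPM and 2 at 0. Both genes lie next to each other on the minus strand of chromosome 5 in GRCm38, *Gabrg1* at chr5:70751047-70842617 and *Gabra2* at chr5:70957597-71095849.

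The neighbouring receptor genes on chromosome 5, *Gabra4* at chr5:71569749-71658308 and *Gabrb1* at chr5:71658113-72149037, were called as well, so that all 4 genes of this GABA-A receptor cluster were higher in ctrl sh. They encode the alpha-4 and beta-1 subunits. *Gabra4* gave 14.7, 7.50 and 7.59 CPM in ctrl sh, 1.61, 1.51 and 0.975 CPM in GFP and 5.04, 13.3 and 10.8 CPM in uninjected libraries, a log2FC of 2.85 (SE 0.34, n = 3 and 3) with an edgeR adjusted P of 0.00313. *Gabrb1* gave 27.4, 14.3 and 15.5 CPM in ctrl sh, 8.15, 7.28 and 3.75 CPM in GFP and 9.38, 20.6 and 20.8 CPM in uninjected libraries, a log2FC of 1.58 (SE 0.32, n = 3 and 3) with an edgeR adjusted P of 0.0359. Unlike *Gabrg1* and *Gabra2*, this pair was present in uninjected libraries, in a range that overlapped that of ctrl sh. The ends of *Gabra4* and *Gabrb1* overlap on opposite strands, and reads there may have been counted for either. Both were named after their values were seen.

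*Adra2c*, the alpha-2C adrenergic receptor, stood at 90.8, 39.05 and 38.3 CPM in ctrl sh, 2.38, 3.02 and 3.23 CPM in GFP and 19.6, 49.3 and 42.1 CPM in uninjected libraries. The GFP group was low and the others overlapped. Its log2FC was 4.27 (SE 0.39, n = 3 and 3), edgeR adjusted P 0.000991. *Grm8*, a metabotropic glutamate receptor, gave 3.05, 8.51 and 13.8 CPM in ctrl sh, 1.02, 0.887 and 0.450 CPM in GFP and 2.82, 1.55 and 1.40 CPM in uninjected libraries. All ctrl sh libraries were above and all GFP libraries below the uninjected range. The *Grm8* log2FC was 3.41 (SE 0.58, n = 3 and 3), edgeR adjusted P 0.0168, and the call was lost without GFP replicate 1, GFP replicate 2 or ctrl sh replicate 2, at edgeR adjusted P of 0.0667, 0.0864 and 0.0508. The seventh called receptor was *Grm3*, with 59 counts in ctrl sh and 5 in GFP, a ratio of 11.2 with a 95% counting interval of 4.52 to 35.6, named after its values were seen. *Htr3a*, a serotonin-gated channel subunit called outside this list, had 23.4, 8.28 and 7.59 CPM in ctrl sh and 1.70, 0.532 and 0.975 CPM in GFP, a log2FC of 3.59 (SE 0.55, n = 3 and 3) with an edgeR adjusted P of 0.0102 that rose to 0.0615 without GFP replicate 2.

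*Fbxo2*, which recruits glycoproteins to a ubiquitin ligase, stood at 44.3, 64.04 and 75.2 CPM in ctrl sh, 1.61, 2.04 and 1.20 CPM in GFP and 1.41, 0.967 and 0.970 CPM in uninjected libraries. GFP and uninjected libraries overlapped at a low level and every ctrl sh library was above them. The log2FC was 5.23 (SE 0.26, n = 3 and 3), with an edgeR adjusted P of 5.97e-05. In libraries outside this comparison *Fbxo2* was at 73.2, 86.3 and 72.1 CPM in Lrp2 sh1, 6.07, 3.94 and 2.76 CPM in Lrp2 sh2 and 2.82, 3.05 and 4.20 CPM in nSREBP2 eyes. Of both *Lrp2* hairpin groups, which carry the same mCherry cargo, only Lrp2 sh1 thus reached the level of ctrl sh.

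*Enpp2*, autotaxin, the secreted enzyme that makes lysophosphatidic acid, had the lowest adjusted P of all genes. It gave 1392, 1248 and 1643 CPM in ctrl sh, 125, 137 and 103 CPM in GFP and 283, 759.5 and 985 CPM in uninjected libraries. The groups did not overlap, with uninjected libraries between. Its log2FC was 3.54 (SE 0.14, n = 3 and 3), edgeR adjusted P 1.38e-05. The metallothionein *Mt3*, which binds zinc and copper, showed the same order, at 48.7, 45.8 and 52.6 CPM in ctrl sh, 5.18, 3.02 and 1.80 CPM in GFP and 10.1, 26.02 and 27.4 CPM in uninjected libraries. The *Mt3* log2FC was 3.88 (SE 0.25, n = 3 and 3), edgeR adjusted P 0.000175. *Mt1*, of the same family, was 1 of 8 glucocorticoid-responsive genes and the only one called, beside 0.783% higher among all genes, at 184, 149 and 192 CPM in ctrl sh and 75.05, 105 and 78.6 CPM in GFP, with a log2FC of 1.01 (SE 0.14, n = 3 and 3) and an edgeR adjusted P of 0.00552. It was just past the fold threshold, and without GFP replicate 1, GFP replicate 3, ctrl sh replicate 1 or ctrl sh replicate 3 the log2FC was 0.93, 0.95, 0.97 and 0.94. All 8 genes of that list had a higher sign in ctrl sh, with a median log2FC of 0.25, and DESeq2 called 2.

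Single genes of the lysosome, basement membrane and Wnt lists were called too, each list with 1 call, beside 0.783% higher among all genes. Of 22 lysosome genes 1 was called. This was *Ctsd*, the aspartyl protease cathepsin D, while 4 were higher and 1 lower by the adjusted P alone and the list median was 0.10. *Ctsd* stood at 1099.8, 982 and 1109 CPM in ctrl sh, 416, 434 and 337 CPM in GFP and 247, 473 and 470.3 CPM in uninjected libraries. GFP and uninjected libraries overlapped, and ctrl sh libraries were all higher. The log2FC was 1.41 (SE 0.10, n = 3 and 3), edgeR adjusted P 0.000259. Exons of *Ctsd* overlap the predicted gene *Gm49369*, so that some reads may belong to either. *Col4a3*, a basement membrane collagen chain and the only 1 of 17 basement membrane genes called, gave 487, 288 and 352 CPM in ctrl sh and 141, 129 and 98.8 CPM in GFP, a log2FC of 1.60 (SE 0.19, n = 3 and 3) with an edgeR adjusted P of 0.00321. *Sfrp1*, a secreted inhibitor of Wnt ligands and the only 1 of 19 Wnt pathway genes called, gave 296, 225 and 286 CPM in ctrl sh, 106, 123 and 83.2 CPM in GFP and 125, 163 and 137 CPM in uninjected libraries. All ctrl sh libraries exceeded, and all GFP libraries were below, the uninjected ones, and the log2FC was 1.36 (SE 0.15, n = 3 and 3) with an edgeR adjusted P of 0.00171. Without GFP replicate 3, or with no filter on low counts, 2 Wnt pathway genes were called.

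Among 5 BMP ligands, signals of the TGF-beta family, 1, *Gdf11*, was called, beside 0.783% higher among all genes. All 5 had a higher sign in ctrl sh, 2 were higher by the adjusted P alone and the median log2FC was 0.58. The list summed to 341, 283 and 329 CPM in ctrl sh and 216, 230 and 165 CPM in GFP, without overlap. Uninjected libraries had 152, 273 and 242 CPM. *Gdf11* stood at 74.8, 47.1 and 44.5 CPM in ctrl sh and 30.6, 26.3 and 23.1 CPM in GFP, a log2FC of 1.05 (SE 0.20, n = 3 and 3) with an edgeR adjusted P of 0.0258. The call was lost without any 1 GFP library, at edgeR adjusted P of 0.0581, 0.114 and 0.0564, and without ctrl sh replicate 1 the log2FC was 0.77. Of 15 NRF2 targets 4 were higher by the adjusted P alone and the median log2FC was 0.10. *Nqo1*, a quinone reductase, was the only called gene of that list, beside 0.783% higher among all genes. The count was 2 without GFP replicate 2 or ctrl sh replicate 1, and 3 without ctrl sh replicate 1 and GFP replicate 3 together. *Nqo1* gave 65.9, 47.4 and 50.8 CPM in ctrl sh, 23.3, 22.2 and 18.8 CPM in GFP and 23.3, 47.6 and 45.7 CPM in uninjected libraries, a log2FC of 1.34 (SE 0.14, n = 3 and 3) with an edgeR adjusted P of 0.00134. All ctrl sh libraries were above all GFP libraries, and the uninjected libraries reached from the GFP to the ctrl sh range.

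**Figure D3:**
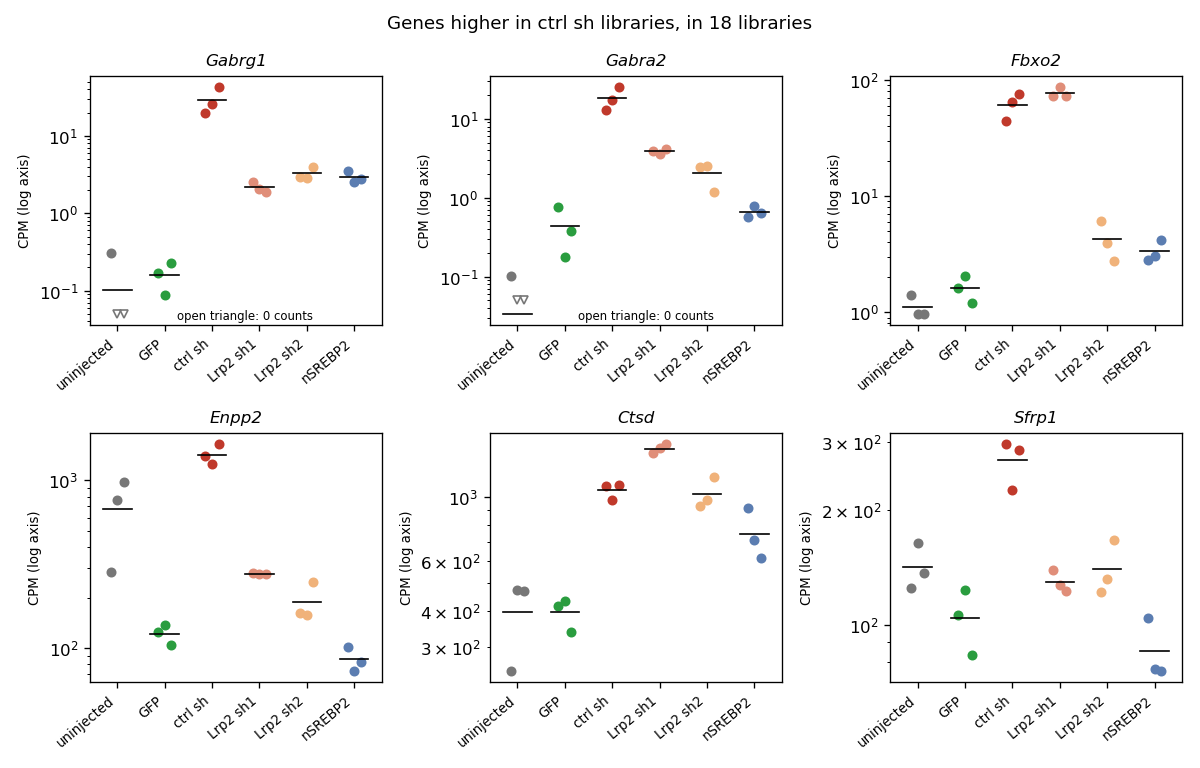
CPM on a log axis of *Gabrg1*, *Gabra2*, *Fbxo2*, *Enpp2*, *Ctsd* and *Sfrp1* in the 18 libraries, with 1 point for each library, a line at the mean of its group and open triangles at 0.05 for libraries with 0 counts. Ctrl sh libraries lie above all GFP and uninjected libraries in all 6 panels.

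The other genes among the 14 largest rises belonged to none of the lists. *Nyap2*, an adaptor of phosphoinositide 3-kinase in neurons, gave 51.4, 18.98 and 20.2 CPM in ctrl sh, 1.36, 2.84 and 1.35 CPM in GFP and 11.7, 25.5 and 22.9 CPM in uninjected libraries, a log2FC of 4.03 (SE 0.48, n = 3 and 3) with an edgeR adjusted P of 0.00307. *Slco1a5*, an organic anion transporter, also had its GFP libraries below both other groups, with a log2FC of 3.67 (SE 0.42, n = 3 and 3) and an edgeR adjusted P of 0.00266. In *Nsg2*, a neuronal endosome protein, levels were 9.87, 8.36 and 8.51 CPM in ctrl sh, 0.594, 0.621 and 0.675 CPM in GFP and 1.41, 5.32 and 5.50 CPM in uninjected libraries, with no overlap among the 3 groups. *Hs6st3*, a heparan sulfate sulfotransferase, stood at 5.59, 2.81 and 5.65 CPM in ctrl sh, 0.0849, 0.532 and 0.225 CPM in GFP and 0.605, 0.774 and 0.431 CPM in uninjected libraries. Of these 3 groups only ctrl sh was high. Outside this comparison *Hs6st3* was at 2.24, 2.18 and 1.84 CPM in Lrp2 sh2 and at most 0.632 CPM in Lrp2 sh1 and nSREBP2 libraries. The long noncoding RNA *AC098839.1* had 169 counts in ctrl sh and 7 in GFP, a ratio of 22.8 with a 95% counting interval of 10.8 to 57.7.

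The precursor locus of miR-204, a microRNA abundant in the RPE, was among the called genes and was named after its values were seen. *Mir204* stood at 3.99, 3.05 and 3.88 CPM in ctrl sh, 1.19, 0.532 and 0.900 CPM in GFP and 2.02, 3.68 and 2.05 CPM in uninjected libraries. Its log2FC was 2.02 (SE 0.31, n = 3 and 3), edgeR adjusted P 0.0100. All ctrl sh libraries were above all GFP libraries, at levels of few counts. The locus lies within *Trpm3*, a cation channel gene that was not called, with a log2FC of −0.24 and an edgeR adjusted P of 0.739. Reads over the precursor are not a measure of the mature microRNA, which was not assayed. Both mature forms are shown from RefSeq (GRCm38.p6, plus strand) because the seed, bases 2 to 8 and in capitals, is what pairs with targets. The first lies at chr19:22750610-22750631 and the second at chr19:22750649-22750669.
mmu-miR-204-5p: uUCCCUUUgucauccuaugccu
mmu-miR-204-3p: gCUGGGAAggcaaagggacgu

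Several genes of the ATF4 stress response, which is switched on when cells lack amino acids or accumulate unfolded protein, were lower in ctrl sh than in GFP. Of 20 genes, 4 were called and all 4 were lower, beside 0.117% lower among all genes, 7 were lower by the adjusted P alone, and the median log2FC was −0.58. With at least 10 counts required in every library 2 were called, as *Fgf21* and *Chac1* had fewer in at least 1 ctrl sh library. *Trib3*, a pseudokinase that ATF4 induces, stood at 33.6, 33.1 and 18.3 CPM in GFP, 2.39, 3.05 and 2.61 CPM in ctrl sh and 2.02, 1.74 and 2.48 CPM in uninjected libraries. GFP libraries were all high, and ctrl sh and uninjected libraries overlapped at a low level. The log2FC was −3.41 (SE 0.26, n = 3 and 3), edgeR adjusted P 0.000327. *Chac1*, which degrades glutathione, gave 10.95, 10.9 and 7.05 CPM in GFP, 0.725, 0.703 and 1.52 CPM in ctrl sh and 1.51, 2.42 and 2.05 CPM in uninjected libraries, with a log2FC of −3.31 (SE 0.32, n = 3 and 3) and an edgeR adjusted P of 0.00112. Here GFP was again apart, and ctrl sh lay at the lower end of the uninjected range or below it.

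*Asns*, asparagine synthetase, had 14.6, 15.2 and 10.6 CPM in GFP, 2.61, 4.30 and 4.22 CPM in ctrl sh and 5.04, 3.19 and 1.51 CPM in uninjected libraries. Its log2FC was −1.87 (SE 0.22, n = 3 and 3), edgeR adjusted P 0.00307. As with *Trib3*, only the GFP libraries of these 3 groups were high. Outside this comparison *Asns* was at 4.19, 4.05 and 5.27 CPM in Lrp2 sh1 and 11.1, 10.9 and 11.97 CPM in Lrp2 sh2. In nSREBP2 libraries it was at 12.98, 10.98 and 12.4 CPM, near the GFP level. *Trib3* was at 7.27, 5.29 and 5.70 CPM in Lrp2 sh1, 3.91, 3.52 and 2.93 CPM in Lrp2 sh2 and 10.7, 8.97 and 7.95 CPM in nSREBP2 libraries. *Fgf21*, a secreted hormone of metabolic stress, had 15, 29 and 12 counts in GFP and 1, 1 and 0 in ctrl sh libraries. With 2 counts against 56 in all, the ratio of ctrl sh to GFP was 0.0338, with a 95% counting interval of 0.00399 to 0.128, and the edgeR adjusted P was 0.0119. The *Fgf21* call was lost without ctrl sh replicate 2 or 3, at edgeR adjusted P of 0.0503 and 0.0532. Against uninjected libraries the log2FC of *Trib3*, *Chac1* and *Asns* was 3.74, 2.24 and 2.01 in GFP and 0.35, −1.05 and 0.16 in ctrl sh. *Atf4* itself was not called, at 98.1, 117 and 112 CPM in ctrl sh and 125, 138 and 149.8 CPM in GFP.

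Promoters of the called ATF4 genes are shown because these genes moved together. The letters TGATGNAA, the core to which ATF4 and C/EBP proteins bind as a pair, were searched on both strands in the 250 bases before each RefSeq start (GRCm38.p6), with no other motif searched. They occurred in 1133 of 32817 promoters (3.45%), in 6 of the 18 listed genes with an entry (33.3%), and in 3 of the 4 called genes, *Chac1*, *Asns* and *Fgf21* but not *Trib3*. The match began 193, 23 and 139 bases before the start. Sequences of 30 bases around it are given 5′ to 3′ on the strand of the gene, with the match in capitals, at chr2:119351038-119351067 (plus strand), chr6:7693214-7693243 (minus strand) and chr7:45615611-45615640 (minus strand). A match describes the letters and is not a measure of binding.
*Chac1*: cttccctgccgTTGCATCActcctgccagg
*Asns*: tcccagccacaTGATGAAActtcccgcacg
*Fgf21*: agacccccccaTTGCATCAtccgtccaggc

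**Figure D4:**
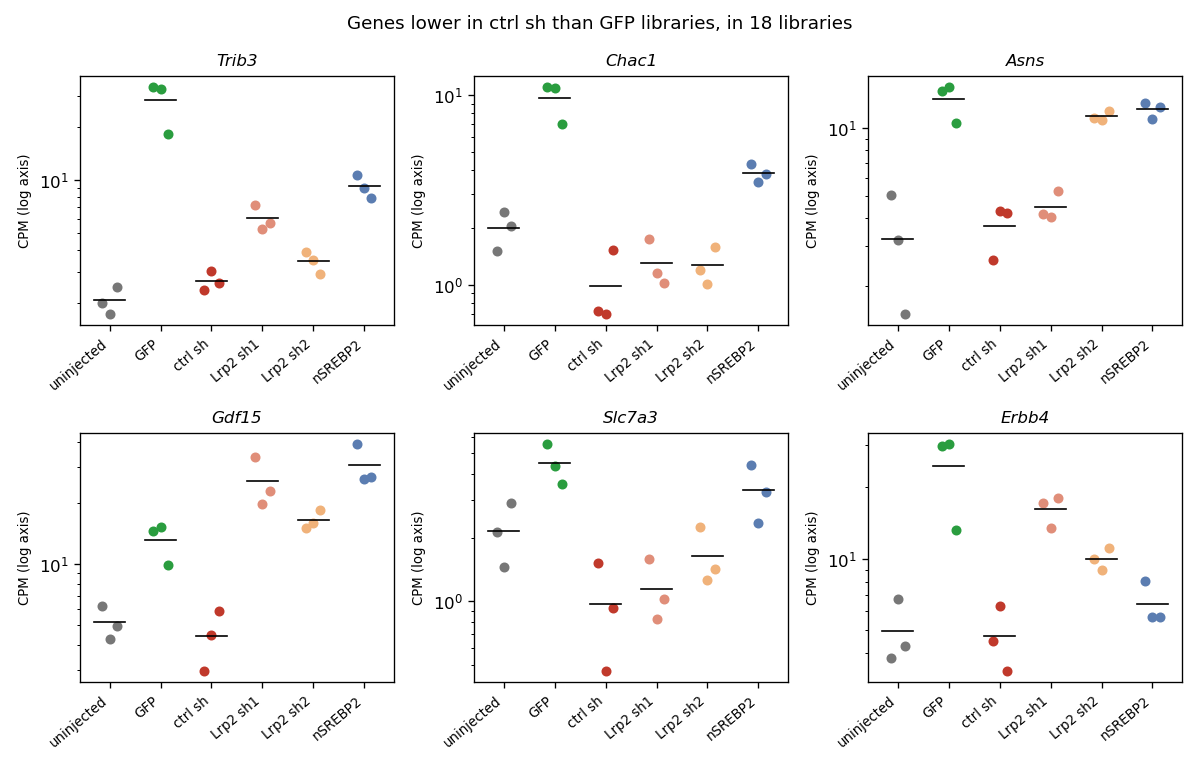
CPM on a log axis of *Trib3*, *Chac1*, *Asns*, *Gdf15*, *Slc7a3* and *Erbb4* in the 18 libraries, with 1 point for each library and a line at the mean of its group. GFP libraries lie above all ctrl sh and uninjected libraries in all 6 panels.

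Further genes among the 14 largest falls follow. *Gdf15*, a secreted stress factor and the only 1 of 20 p53 targets called, beside 0.117% lower among all genes, stood at 14.5, 15.3 and 9.90 CPM in GFP, 2.97, 4.45 and 5.90 CPM in ctrl sh and 6.25, 4.26 and 4.96 CPM in uninjected libraries. Its log2FC was −1.59 (SE 0.25, n = 3 and 3), edgeR adjusted P 0.0125, while 2 p53 targets were lower by the adjusted P alone and the list median was −0.12. The call was lost without GFP replicate 1, GFP replicate 2 or ctrl sh replicate 2, at edgeR adjusted P of 0.0581, 0.0691 and 0.0549. Outside this comparison *Gdf15* was at 33.98, 19.8 and 23.04 CPM in Lrp2 sh1 and 15.01, 16.02 and 18.6 CPM in Lrp2 sh2. In nSREBP2 libraries it was at 39.02, 26.2 and 26.96 CPM. *Slc7a3*, a transporter of cationic amino acids, gave 5.52, 4.35 and 3.60 CPM in GFP and 1.52, 0.469 and 0.927 CPM in ctrl sh, a log2FC of −2.19 (SE 0.37, n = 3 and 3) with an edgeR adjusted P of 0.0159 that was 0.0677, 0.0654 and 0.0746 without GFP replicate 1, GFP replicate 2 and ctrl sh replicate 3. *Erbb4*, a receptor for neuregulins, had 29.9, 30.3 and 13.2 CPM in GFP, 4.50, 6.33 and 3.37 CPM in ctrl sh and 3.83, 6.77 and 4.31 CPM in uninjected libraries, with a log2FC of −2.37 (SE 0.34, n = 3 and 3) and an edgeR adjusted P of 0.00717. In all 3 genes no GFP library overlapped with ctrl sh. *Apobr*, a receptor for apolipoprotein B, had a log2FC of −1.54 (SE 0.21, n = 3 and 3), edgeR adjusted P 0.00674, and its exons overlap those of *Cln3* and *Il27*.

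The 6 other genes among the 14 largest falls, *St8sia1*, *Fam169a*, *Igfn1*, *Gpr176*, *B230303O12Rik* and *9330102E08Rik*, had log2FC from −2.26 to −1.19 and all lost their call without at least 1 library. Leaving out GFP replicate 2 alone ended each of these calls, at edgeR adjusted P of 0.171, 0.0601, 0.113, 0.141, 0.0603 and 0.142. *St8sia1*, which makes the ganglioside GD3, gave 5.69, 6.21 and 1.65 CPM in GFP and 0.943, 0.937 and 0.927 CPM in ctrl sh, with GFP 3 close to the ctrl sh libraries. Its call was lost in 5 of the 6 fits that left out 1 library, and over these 6 fits the log2FC ran from −2.66 to −1.96. Without GFP replicate 1, *Igfn1*, *Gpr176*, *B230303O12Rik* and *9330102E08Rik* were lost as well, at edgeR adjusted P of 0.0846, 0.111, 0.0507 and 0.127. Leaving out ctrl sh replicate 1 ended the call of *Gpr176* (0.0858), ctrl sh replicate 2 those of *Gpr176* (0.115), *Fam169a* (0.0517) and *9330102E08Rik* (0.0989), and ctrl sh replicate 3 those of *Fam169a* (0.0502) and *9330102E08Rik* (0.133).

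Rod genes summed to the highest level in GFP 3 among the GFP, ctrl sh and uninjected libraries. *Rbp3*, the retinoid-binding protein that photoreceptors secrete, stood at 8.49, 24.7 and 59.4 CPM in GFP, 2.47, 5.23 and 2.19 CPM in ctrl sh and 1.51, 3.10 and 0.755 CPM in uninjected libraries. GFP libraries did not overlap with the others and differed widely among themselves. The log2FC was −3.24 (SE 0.66, n = 3 and 3), edgeR adjusted P 0.0370, and the call was lost without GFP replicate 2 or ctrl sh replicate 1, 2 or 3, at edgeR adjusted P of 0.0978, 0.0883, 0.0810 and 0.156. Of 15 rod markers edgeR called 0, with 13 at an unadjusted p under 0.05 beside 13.6% of all genes, and DESeq2 called 5; the list median was −2.21. The summed rod list came to 442, 559 and 862 CPM in GFP and 484, 512 and 463 CPM in ctrl sh, with *Gnb1*, a G protein subunit found in many cells, the most abundant. The Lrp2 sh2 and nSREBP2 libraries, outside this comparison, had 988, 535 and 558 CPM and 959.6, 819 and 774 CPM. No rod marker was at 0 in all 6 libraries. With no filter on low counts edgeR called 13 rod genes, with the replicate number as a block 11 and in the fit of all 18 libraries 2. Without GFP replicate 1 it called 7, and without GFP replicate 3 it called 1. The part of rod RNA in the other differences was not tested.

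Markers of other cells of the eyecup were compared in the same way. EdgeR called 0 of 12 endothelial, 8 mural, 10 fibroblast and 5 melanocyte genes, with 0 at an unadjusted p under 0.05 in each list, and DESeq2 called 0. Among 16 macrophage and microglia genes it called 0, with 2 at an unadjusted p under 0.05 and 0 by DESeq2. Fibroblast genes, with *Col1a1* the most abundant, summed to 34281, 47809.5 and 48563 CPM in ctrl sh and 35484, 40582 and 45227 CPM in GFP, so that collagen transcripts were abundant in all 6 libraries. Macrophage genes, with *Csf1r* the most abundant, summed to 515, 542 and 525 CPM in ctrl sh and 499, 529 and 578 CPM in GFP. The Schwann cell list stood apart in spread, at 652, 1163 and 329 CPM in ctrl sh and 363, 233 and 339 CPM in GFP, with *Mbp* the most abundant. EdgeR called 0 of 6, with 3 at an unadjusted p under 0.05 beside 13.6% of all genes, and DESeq2 called 0. Without ctrl sh replicate 3, or in the fit of all 18 libraries, edgeR called 1 Schwann cell gene. With no filter on low counts it called 2.

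*Mag*, a myelin glycoprotein outside the lists and named after its values were seen, was called, at 17.05, 27.3 and 9.53 CPM in ctrl sh and 6.20, 1.77 and 2.85 CPM in GFP. All ctrl sh libraries were above all GFP libraries, with a log2FC of 2.30 (SE 0.46, n = 3 and 3) and an edgeR adjusted P of 0.0357. In the Muller glia and astrocyte list edgeR called 0 of 5, with 2 at an unadjusted p under 0.05, and DESeq2 called 0. With no filter on low counts edgeR called 1 gene of this list. Its sum was 1281, 1492 and 1360.3 CPM in ctrl sh and 955, 1078 and 841 CPM in GFP, without overlap. *Glul*, glutamine synthetase, the most abundant gene of that list, passed the adjusted P alone, with a log2FC of 0.44 and an edgeR adjusted P of 0.0301. Of 6 inner retina neuron genes edgeR called 0, with 3 at an unadjusted p under 0.05 beside 13.6% of all genes, DESeq2 called 1, and 5 had a lower sign in ctrl sh. With no filter on low counts edgeR called 3 inner retina genes, and without GFP replicate 3 or ctrl sh replicate 1 it called 1. They summed to 188, 138 and 135 CPM in ctrl sh and 167, 194 and 160.3 CPM in GFP, with *Rbpms* the most abundant. The part of these cells in the result was not tested.

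Lists of hairpin processing, nucleic acid sensing, interferon response and sterol synthesis held no called gene. Of 13 genes that process hairpins or act in RNA interference edgeR called 0, with 1 at an unadjusted p under 0.05, DESeq2 called 0, and the median was −0.03. Of 15 nucleic acid sensors edgeR called 0, with 0 at an unadjusted p under 0.05, and DESeq2 called 0. Among 37 interferon-stimulated genes edgeR called 0, with 13 at an unadjusted p under 0.05 beside 13.6% of all genes, DESeq2 called 0, and 32 had a lower sign in ctrl sh. The median was −0.31. The summed interferon list was 548, 629 and 579.7 CPM in ctrl sh, 655, 702 and 738 CPM in GFP and 670.1, 591 and 697 CPM in uninjected libraries. All ctrl sh sums were below all GFP sums, within or under the range of the uninjected ones. Without GFP replicate 1 edgeR called 1 gene of this list. In antigen presentation edgeR called 0 of 16, with 2 at an unadjusted p under 0.05, and in complement 0 of 14, with 0; DESeq2 called 0 in both. Of 24 genes of cholesterol synthesis and uptake edgeR called 0, with 8 at an unadjusted p under 0.05 beside 13.6% of all genes, and DESeq2 called 0. Of these, 19 had a higher sign in ctrl sh, 1 was higher by the adjusted P alone and the median was 0.18. They summed to 789, 754 and 705 CPM in ctrl sh, 585, 685 and 686 CPM in GFP and 570.0, 737 and 649 CPM in uninjected libraries, with every ctrl sh sum above every GFP sum.

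The genes that the vectors of the series use or act on were not called. *Lrp2*, the endocytic receptor megalin, stood at 167, 87.7 and 100.2 CPM in ctrl sh, 175, 160.3 and 87.6 CPM in GFP and 55.3, 139 and 149 CPM in uninjected libraries. Both vector groups overlapped, with a log2FC of −0.26 (SE 0.28, n = 3 and 3) and an edgeR adjusted P of 0.772. The fits without 1 library gave log2FC from −0.60, without ctrl sh replicate 1, to −0.07, without GFP replicate 1, and without ctrl sh replicate 1 and GFP replicate 3 together it was −0.85 with an edgeR adjusted P of 6.95e-05, which is not past the fold threshold. Without GFP replicates 2 and 3 in turn it was −0.16 and −0.51, and without ctrl sh replicates 2 and 3 it was −0.09 and −0.15. In the *Lrp2* hairpin groups it was at 29.7, 42.8 and 38.2 CPM in Lrp2 sh1 and 37.8, 34.5 and 43.9 CPM in Lrp2 sh2. *Srebf2*, which encodes SREBP2, gave 122, 114 and 108 CPM in ctrl sh and 82.9, 113 and 106 CPM in GFP, edgeR adjusted P 0.551. Its log2FC of 0.17 became 0.06 without GFP replicate 1 and 0.27 without GFP replicate 2. *Best1*, a chloride channel gene whose promoter drives the vectors, gave 2.76, 2.19 and 3.46 CPM in ctrl sh and 2.55, 2.48 and 2.78 CPM in GFP, against 4.74, 6.87 and 4.31 CPM in uninjected libraries, with a log2FC of 0.09 (SE 0.24, n = 3 and 3) and an edgeR adjusted P of 0.926. Without ctrl sh replicate 3 the sign of the *Best1* log2FC turned, at −0.09, and it was 0.06, 0.14 and 0.24 without GFP replicate 2, GFP replicate 3 and ctrl sh replicate 2.

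The called genes were then followed in the other comparisons with uninjected eyes. Of the 141 genes higher in ctrl sh than GFP, the median log2FC against uninjected libraries was 0.76 in ctrl sh, over the 140 genes that could be tested there, and −0.96 in GFP, over 124. For the 21 lower genes these medians were −0.64, over 17, and 1.18, over 20. Genes near 0 in both GFP and uninjected libraries, such as *Gabrg1* and *Gabra2*, are not in the GFP median. Both sets were chosen in the same GFP and ctrl sh libraries, so these values describe them and carry no test. Genes differed within the sets. Of the 140 tested in ctrl sh 34 had a negative log2FC and 52 were called higher, beside 156 of all 17822 genes tested. Of the 124 tested in GFP 16 had a positive log2FC and 49 were called lower, beside 212 of all 17837.

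The remaining groups used libraries that the ctrl sh and GFP comparison did not, and shared the uninjected ones with each other. They differed in sex-linked RNA as well, as Lrp2 sh2 replicates 2 and 3 had 3630 and 3625 Y-linked counts and each nSREBP2 library at least 2770. In Lrp2 sh1, 129 of the 141 higher genes could be tested, and 33 were called higher and 21 lower, beside 1.99% and 4.59% of all genes. Lrp2 sh2 had 17 called higher and 50 lower of 131, beside 3.72% and 4.32%, and nSREBP2, which carries no hairpin, had 9 higher and 67 lower of 128, beside 5.27% and 5.29%. The medians were 0.19 in Lrp2 sh1, −0.58 in Lrp2 sh2 and −1.21 in nSREBP2. For the 21 lower genes the medians were −0.22, 0.70 and 0.88, with 3 called higher and 2 lower of 16 tested in Lrp2 sh1, 4 and 0 of 18 in Lrp2 sh2 and 6 and 0 of 17 in nSREBP2. Lrp2 sh2 libraries, whose vector also carries mCherry and a hairpin, were low in *Ttr*, *Lrat* and *Rdh10*. *Ttr* stood at 117, 122 and 322 CPM there and at 734, 1129 and 791 CPM in Lrp2 sh1. In nSREBP2 it was at 137, 93.5 and 82.9 CPM. Those groups also differ from ctrl sh in the hairpin target or the cargo, and these cannot be told apart.

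To set the called genes beside other hairpin libraries, genes were counted whose 6 *Lrp2* hairpin libraries all lay above the 6 uninjected and nSREBP2 libraries, a count chosen after values were seen. It takes no account of the GFP libraries, where *Htr2c*, a serotonin receptor, was at 7.73, 6.74 and 7.28 CPM, above its 4.82, 4.55 and 4.34 CPM in Lrp2 sh1. The order held for 14 of the 141 higher genes (9.93%), beside 452 of 18018 genes tested (2.51%). The reverse order held for 0 of the 141, beside 233 of all genes (1.29%), by the order of levels with no test. *Gabra2*, *Ctsd* and *Cdh3* were among the 14, as were *Ocln*, the tight junction protein occludin, *Htr2c* and *Tubb4a*, a tubulin. *Gabra2* stood at 3.87, 3.55 and 4.17 CPM in Lrp2 sh1, 2.48, 2.52 and 1.17 CPM in Lrp2 sh2 and 0.564, 0.784 and 0.640 CPM in nSREBP2 libraries, well under its level in ctrl sh. *Ctsd* gave 1426, 1484 and 1535 CPM in Lrp2 sh1, 933, 976 and 1177 CPM in Lrp2 sh2 and 917, 710.3 and 613 CPM in nSREBP2 libraries. *Gabrg1* was not among them, at 2.53, 2.07 and 1.87 CPM in Lrp2 sh1, 2.95, 2.85 and 4.02 CPM in Lrp2 sh2 and 3.48, 2.53 and 2.74 CPM in nSREBP2, so that a level above uninjected libraries was found with and without a hairpin. Of the 21 lower genes 1, *Erbb4*, had all *Lrp2* hairpin libraries above the uninjected and nSREBP2 ones. Ctrl sh against GFP changes GFP, mCherry and the hairpin together, and these cannot be told apart here.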

How the data were processed

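RNA was taken from the RPE of 18 mice in 6 groups of 3. The authors deposited a table of raw counts per gene; STAR and the build GRCm38 are named in the submitters' processing notes. The libraries were directional, but how strand was handled by the counting step and which annotation it had are not given in the sources used here, so overlapping genes are uncertain. Counts were fitted in R 4.3.3 with edgeR 4.0.16 (filterByExpr, TMM, quasi-likelihood test, Benjamini-Hochberg adjustment over all genes tested), using only the libraries of the groups compared. DESeq2 1.42.0 was the alternative tool. Replicates are separate mice. Floors and counting intervals cover counting error only. Coordinates are from GENCODE on GRCm38. The script was tested on simulated data.

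The members and lists were chosen with earlier results of these data known. Named were the 14 largest rises and 14 largest falls by log2FC of called genes whose groups did not overlap and whose mean log2 CPM was 1 or more, the called members of the lists (at most 4 of a list), and *Lrp2*, *Srebf2* and *Best1*. In a list with no call, up to 2 members past the adjusted P could be named. Genes named outside this rule were not followed through the alternatives. Alternatives changed the tool, the size factors, the filter on low counts, the libraries in the fit and the block, and left out each library in turn. Cargo sequences are not in the table, so cargo transcripts were not measured.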

Additional observations from a re-analysis of the deposited data

Results flagged for a closer look

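In 6 named genes every ctrl sh library lay above, and every GFP library below, every uninjected library. The largest rises and falls among the named genes were picked for no overlap between ctrl sh and GFP. How many of all genes show this order was not counted. Against uninjected libraries the edgeR adjusted P in ctrl sh was 0.115 for *Enpp2*, 0.108 for *Nsg2* and 0.0540 for *Grm8*. In GFP it was 0.131 for *Sfrp1* and 0.144 for *Grm8*, and *AC098839.1* was not tested. The others were under 0.05. The difference between both vectors was tested by edgeR in the comparison of ctrl sh with GFP. For *AC098839.1*, a long noncoding RNA, the log2FC was 4.42. *Mt3*, a metallothionein, had 3.88. In *Nsg2*, a neuronal endosome protein, it was 3.78. *Enpp2*, autotaxin, had 3.54. *Grm8*, a glutamate receptor, had 3.41, and its call was lost without GFP replicate 1, GFP replicate 2 or ctrl sh replicate 2. *Sfrp1*, a Wnt inhibitor, had 1.36.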

How the results depend on the processing

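Of the 42 named genes, none lost its call or sign with DESeq2, its size factors, no filter, the stricter filter (31 of 42 tested) or the replicate block, and 1, *St8sia1*, lost its call in the fit of all 18 libraries. The 162 calls in ctrl sh against GFP became 337 with no filter on low counts and 286 without ctrl sh replicate 1 and GFP replicate 3 together (an alternative chosen after seeing the data), and ran from 107 to 168 when 1 library was left out. By the adjusted P alone, 483 genes became 939, 1034 and 217 to 430 in the same settings. Calls in ctrl sh against uninjected libraries (426) were 687 with no filter, 711 in the fit of all 18 libraries, 131 with the replicate block and 79 to 423 with 1 library left out. Those in GFP against uninjected libraries (251) were 554, 526 and, with 1 library left out, 57 to 362. The cause was not tested. *Best1*, at 0.09, reversed without ctrl sh replicate 3 and ran from −0.0855 to 0.24 over the libraries left out. Whether replicate numbers pair the libraries was not settled. The correlations of GFP and ctrl sh deviations with the same number were 0.171, 0.0861 and 0.208. Those with unlike numbers ran from −0.240 to 0.110, and GFP 2 correlated best with ctrl sh 1, at 0.110. With the number as a block there were 230 calls in ctrl sh against GFP, 182 higher and 48 lower, of which 161 were among the 162. The block also raised the visual cycle calls from 3 to 6 and the rod calls from 0 to 11. DESeq2 called 203, 166 higher and 37 lower. Depth limits genes near 3 counts in a library.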

Other observations

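Lens genes summed to 1149, 12.96 and 11.5 CPM in uninjected libraries, with 1 library far above the others, and to 8.999, 9.41 and 11.2 CPM in GFP and 6.96, 9.45 and 10.1 CPM in ctrl sh libraries. Uninjected 1 was also the lowest uninjected library in *Rpe65* and *Ttr*. Y-linked genes summed to 2958 counts in uninjected 3 and to 1 and 7 in uninjected 1 and 2, so that the uninjected group mixed patterns of sex-linked RNA. Comparisons with uninjected libraries carry these differences, whose part was not tested.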
